A study of Homo sapiens with 4 samples.

Results

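BNC2, NFIB, NFIC, TCF3 and ZBTB7A are DNA-binding transcription factor genes on the short arms of chromosomes 9 and 19. They were followed here as 5 of the 78724 gene rows of a ribosome footprint count table, of which 9443 rows held any read. The members were chosen by their place on GRCh38, inside stretches of neighbouring genes that an earlier analysis of these data had bounded by read totals. They were picked with earlier results for the same contrast known, so how many of them passed a test is a description and supports nothing by itself. The smallest total among them was 80 reads, on BNC2, so none fell under the minimum of 20 reads for a comparison.

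The cells were A375, an established human melanoma line. The arginine-free group was kept for 48 h in a medium holding glucose, pyruvate and all amino acids but L-arginine, and the control group was given control medium for the same time. There were 2 libraries per group. The labels name no genotype, transgene or other agent, and the study's title describes the cancers concerned as deficient in ASS1, the enzyme with which cells begin to make arginine from citrulline. Nothing in the labels says that the 2 libraries of a group came from separate cultures, so a p-value here reflects how far the deposited libraries of a group differ, and that difference may be technical.

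A transcription factor binds short DNA words and raises or lowers the output of nearby genes. Nuclear factor I (NFI) proteins, among them NFIB and NFIC, bind as dimers to palindromes built from the half-site TTGGC. TCF3 encodes the E proteins E12 and E47, basic helix-loop-helix factors that bind E-boxes (CANNTG) as dimers and are held off DNA by the ID proteins. ZBTB7A is a BTB zinc finger repressor known for silencing fetal globin genes in red cell precursors, and BNC2 is a zinc finger protein of the basonuclin family whose locus is associated with human skin pigmentation. A footprint count reflects both the amount of an mRNA and the ribosomes on it. Differences in the share of cells holding an mRNA, in its amount per cell and in the ribosomes on it cannot be told apart here. Levels are relative within a library, and matched mRNA libraries were not analysed.

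Total counts were 234766 and 192006 in arginine-free replicates 1 and 2, and 105004 and 217989 in control replicates 1 and 2. At these depths a count of 0 allows 3 reads, which scales to between 12.8 and 28.6 CPM (counts per 1000000) of the library total. Rows could be read as genes in only part of the genome. The submitters' processing notes name GRCh37, while the table's coordinates are those of GRCh38, and 72.7% of protein-coding rows outside the readable stretches were at 0. The chromosome 9 stretch (VLDLR to VCP, 2621567 to 35072668) had 35.4% of protein-coding rows at 0. The chromosome 19 stretch (ATP5F1D to CHAF1A, 1241746 to 4443397) had 14.3%. The stretches were bounded by read totals in these same data, so fewer rows at 0 inside them follow in part from that choice. NFIB and BNC2 lie in the part between VLDLR and RPS6, which the earlier analysis joined to the stretch only through VLDLR, a gene known to be induced by stress. Of 45 protein-coding rows in that part, 22.2% were at 0. Of the 30 nearest protein-coding neighbours of the 5 genes, 3 on each side of each gene, 18 held 20 or more reads. By gene these were 5 of 6 at NFIB, 5 at ZBTB7A and 4 at BNC2, but only 2 each at NFIC and TCF3.

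Each of the 5 rows sums reads over all annotated exons of a gene, untranslated regions included, without regard to strand. Another 16 rows overlap the 5 genes, 5 of them at BNC2 and 5 at NFIB, and together they held 2 reads. One of these reads was on the antisense row BNC2-AS1 and the other on an opposite-strand row that overlaps NFIB and runs past its end. How reads that match several places were handled is not given in the sources used here. NFI genes resemble each other in the part that encodes the DNA-binding domain, and so do the E protein genes, so reads from such stretches are uncertain in NFIB, NFIC and TCF3.

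Levels below are CPM over the total of the 2526 tested rows after scaling by TMM, a factor that aligns the bulk of rows between libraries. Between genes, levels are compared only as CPM per kilobase of exon. In arginine-free medium NFIC was the highest at 47.5 ± 5.61 CPM per kilobase, ahead of ZBTB7A at 35.3 ± 2.73, NFIB at 26.0 ± 0.186, TCF3 at 19.7 ± 7.90 and BNC2 at 3.39 ± 1.52 (SD, n = 2 each). The closest neighbours in that order were NFIB and TCF3, whose nearest libraries stood at 25.8 and 25.3 CPM per kilobase. In control medium NFIC was again the highest at 51.7 ± 2.60 CPM per kilobase, followed by TCF3 at 32.6 ± 2.61, ZBTB7A at 19.1 ± 6.59, BNC2 at 14.7 ± 1.13 and NFIB at 12.1 ± 3.26 (SD, n = 2 each). BNC2 overlapped both ZBTB7A and NFIB there and has no order against either, while the lower ZBTB7A library (14.46 CPM per kilobase) barely exceeded the higher NFIB library (14.42). The exon lengths, from 5.217 kilobases for TCF3 to 13.589 for BNC2, include untranslated regions where ribosomes seldom sit, so these levels understate genes with long ones.

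**Figure D1:**
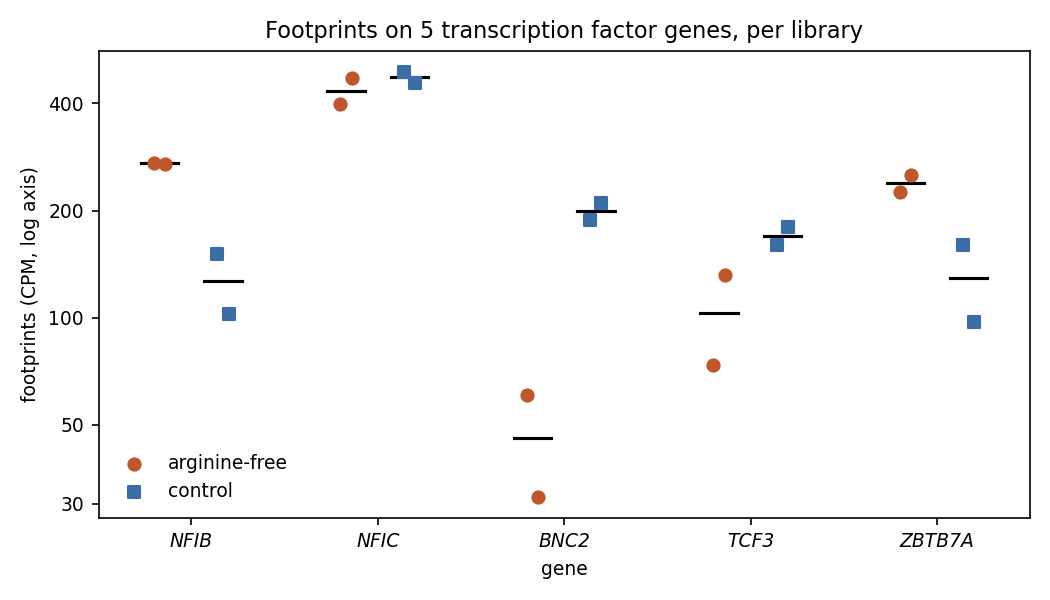
Footprints (CPM, log axis) on the 5 genes in each library, with arginine-free libraries as circles left of control libraries as squares, and group means as black bars. NFIB and ZBTB7A sit higher in both arginine-free libraries, BNC2 and TCF3 sit lower in both, and NFIC overlaps.

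The plot of CPM by library shows 3 patterns. NFIB and ZBTB7A were higher in arginine-free medium, BNC2 was lower, and NFIC and TCF3 did not pass the test at an adjusted p under 0.05. Across all 2526 tested rows 33.0% passed in either direction, 16.0% higher and 16.9% lower. Only 196 of these rows lie in the readable stretches, so most of this background is rows not read as genes here. The shares were 27.9% of 61 tested rows in the chromosome 9 stretch and 38.2% of 55 in the chromosome 19 stretch. The groups did not overlap for 4 of the 5 genes, against 67.3% of all tested rows.

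NFIB (ENSG00000147862.18, chromosome 9, 14081843 to 14398983, minus strand) belongs to the family that in mice is needed for lung and brain development. Its row held 63 and 43 reads in arginine-free replicates 1 and 2, against 16 and 20 reads in control replicates 1 and 2. Scaled, this was 272.8 and 270.1 CPM in arginine-free libraries, against 150.8 and 102.6 CPM in control libraries. Both arginine-free libraries lay above both controls, and the arginine-free pair differed by under 3 CPM. The fitted log2 fold change was 1.15 (SE 0.32, 95% interval 0.46 to 1.84), a 2.22-fold rise (edgeR quasi-likelihood test, adjusted p = 0.0143). By counts summed over libraries the ratio was 2.27, with an exact 95% interval of 1.54 to 3.42 that covers counting error only. Of the coding rows beside NFIB, ZDHHC21, a palmitoyltransferase gene that passed the filter on low counts (a minimum of 48.8 CPM of the library total in 2 libraries) only through the arginine-free libraries, had 22 and 10 reads in arginine-free libraries, against 3 and 2 in control libraries. The scaffold gene MPDZ was lower, with 26 and 38 in arginine-free libraries, against 42 and 85 in control libraries (edgeR adjusted p = 0.00888). FREM1 and TYRP1, the latter given below, were lower too, and both met that filter only through the control libraries. FREM1 had 6 and 8 reads in arginine-free libraries, against 26 and 38 in control libraries. LURAP1L, which was not tested, had 11 and 7 in arginine-free libraries, against 2 and 1 in control libraries. The higher control value of NFIB came from control replicate 1, the shallowest library. Without control replicate 2 the log2 fold change of NFIB was 0.87 and the call ended (edgeR adjusted p = 0.208), and it also ended with DESeq2 (adjusted p = 0.182).

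NFIC (ENSG00000141905.19, chromosome 19, 3314403 to 3469217, plus strand), known in mice for tooth root formation, had the most reads of the 5. It held 92 and 75 reads in arginine-free libraries, against 52 and 89 in control libraries. The levels were 398.4 and 471.1 CPM in arginine-free libraries, against 490.1 and 456.4 CPM in control libraries, so the groups overlapped. The log2 fold change was -0.12 (SE 0.23, edgeR adjusted p = 0.714). Its 95% interval, -0.62 to 0.37, spans from 0.653-fold to 1.29-fold and so does not show that the level was the same.

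The same 2 NFI genes can be set against each other inside a library, which needs no scaling between libraries. NFIB made up 40.7% of their joint reads in arginine-free replicate 1 (95% Wilson interval 33.2 to 48.5) and 36.4% in arginine-free replicate 2 (28.3 to 45.4). It made up 23.5% in control replicate 1 (15.0 to 34.9) and 18.4% in control replicate 2 (12.2 to 26.7). The means were 38.5% ± 2.97 in arginine-free and 20.9% ± 3.66 in control medium (SD, n = 2 each), with no overlap. The exact two-sided permutation p was 0.333, the smallest that 2 libraries against 2 can give. The other NFI genes could not be followed: the rows at the places of NFIA and NFIX, outside the stretches, held 0 and 1 reads.

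BNC2 (ENSG00000173068.19, chromosome 9, 16409503 to 16870747, minus strand) showed the strongest difference of the 5. Its row held 14 and 5 reads in arginine-free libraries, against 20 and 41 in control libraries. The levels were 60.6 and 31.4 CPM in arginine-free libraries, against 188.5 and 210.3 CPM in control libraries. Both arginine-free libraries lay well below both controls. The log2 fold change was -2.05 (SE 0.39, 95% interval -2.88 to -1.21), or 4.13-fold lower (edgeR adjusted p = 0.00125). By summed counts the ratio of arginine-free to control was 0.24, with an exact 95% interval of 0.136 to 0.408 for counting error only.

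BNC2 met the same filter in 1 arginine-free and 2 control libraries. It thus entered the test through the group where it was high. The value rests on 19 reads in arginine-free medium and moved with the library left out. Leaving out arginine-free replicate 1 gave -2.61 and leaving out replicate 2 of that medium gave -1.67, and BNC2 passed each time. With DESeq2 the log2 fold change was -2.00 and the adjusted p 0.0593, so that call ended.

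BNC2 and NFIB lie on the same chromosome arm and moved in opposite directions. Of their joint reads, BNC2 held 18.2% and 10.4% in arginine-free replicates 1 and 2, against 55.6% and 67.2% in control replicates 1 and 2. Wilson 95% intervals, which cover counting error only, reached at most 28.2% in arginine-free libraries and began at 39.6% or above in control libraries. This share restates the reads behind the 2 calls above and is no further support for them. Of the coding neighbours of BNC2, CNTLN held 9 and 5 reads in arginine-free libraries, against 10 and 17 in control libraries, and met the filter only through the control libraries. PSIP1, SNAPC3 and RRAGA did not pass the test (edgeR adjusted p = 0.102, 0.806 and 0.240). The row of BNC1, the other basonuclin, lies outside the stretches and held 0 reads.

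Melanocyte genes are the defining markers of the labelled cell type, and in the stretches their rows held few reads. Of 9 such markers 3 lie in the stretches. TYRP1, a melanosome enzyme, had 1 and 0 reads in arginine-free libraries, against 16 and 25 in control libraries. MLANA had 0 and 2 in arginine-free libraries, against 6 and 10 in control libraries, and SLC45A2 had 0 and 0 in arginine-free libraries, against 0 and 2 in control libraries. The 3 summed to 1 and 2 reads in arginine-free libraries, against 22 and 37 in control libraries, lower as BNC2 was, and their part in the BNC2 result was not tested. The rows of PMEL, TYR, SOX10 and MITF were at 0 and S100B held 2 reads, outside the stretches, where a row cannot be read as its gene. No row was matched to DCT.

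TCF3 (ENSG00000071564.19, chromosome 19, 1609292 to 1652615, minus strand) held 17 and 21 reads in arginine-free libraries, against 17 and 35 in control libraries. The levels were 73.6 and 131.9 CPM in arginine-free libraries, against 160.2 and 179.5 CPM in control libraries. Both arginine-free libraries lay below both controls, but they differed widely from each other. The log2 fold change was -0.79 (SE 0.36) with a 95% interval of -1.56 to -0.02. The unadjusted p was 0.046 and the edgeR adjusted p 0.109, so TCF3 did not pass. The call depended on 1 library: leaving out arginine-free replicate 2 gave -1.16 and a pass (edgeR adjusted p = 0.0449). Leaving out its partner gave -0.34 and none (edgeR adjusted p = 0.545). The other E protein genes TCF4 and TCF12 had 5 and 0 reads in all at their places outside the stretches, ID3 had 0 and ID4 had 33. No row was matched to ID1 or ID2.

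ZBTB7A (ENSG00000178951.9, chromosome 19, 4043303 to 4066899, minus strand) held 52 and 40 reads in arginine-free libraries, against 17 and 19 in control libraries. The levels were 225.2 and 251.2 CPM in arginine-free libraries, against 160.2 and 97.4 CPM in control libraries. Both arginine-free libraries lay above both controls. The log2 fold change was 0.95 (SE 0.34, 95% interval 0.22 to 1.67), a 1.93-fold rise (edgeR adjusted p = 0.0444). This call was close to the threshold. It ended without control replicate 2 (log2 fold change 0.59, edgeR adjusted p = 0.428), without arginine-free replicate 2 (0.94, adjusted p = 0.0621), with library totals in place of TMM (0.87, adjusted p = 0.0821) and with DESeq2 (1.01, adjusted p = 0.333). Its coding neighbours differed among themselves. EEF2, the translation elongation factor, had 5189 and 4030 reads in arginine-free libraries, against 1292 and 2170 in control libraries (log2 fold change 1.04, edgeR adjusted p = 0.00863). MAP2K2, a kinase of the MAPK cascade, had 101 and 77 in arginine-free libraries, against 107 and 143 in control libraries (log2 fold change -0.91, edgeR adjusted p = 0.00842). The relatives ZBTB7B and ZBTB7C had 0 reads at their places outside the stretches.

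Of the joint reads of ZBTB7A and TCF3, both on chromosome 19, ZBTB7A held 75.4% and 65.6% in arginine-free replicates 1 and 2, against 50% and 35.2% in control replicates 1 and 2. The libraries of the groups did not overlap, while the Wilson intervals of arginine-free replicate 2 (53.1 to 76.3) and control replicate 1 (34.1 to 65.9) did. This exact permutation p, and that of the BNC2 and NFIB share, was also 0.333, so none of the 3 shares compared could pass. The 3 shares restate the reads of the single genes and add no support to their calls.

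**Figure D2:**
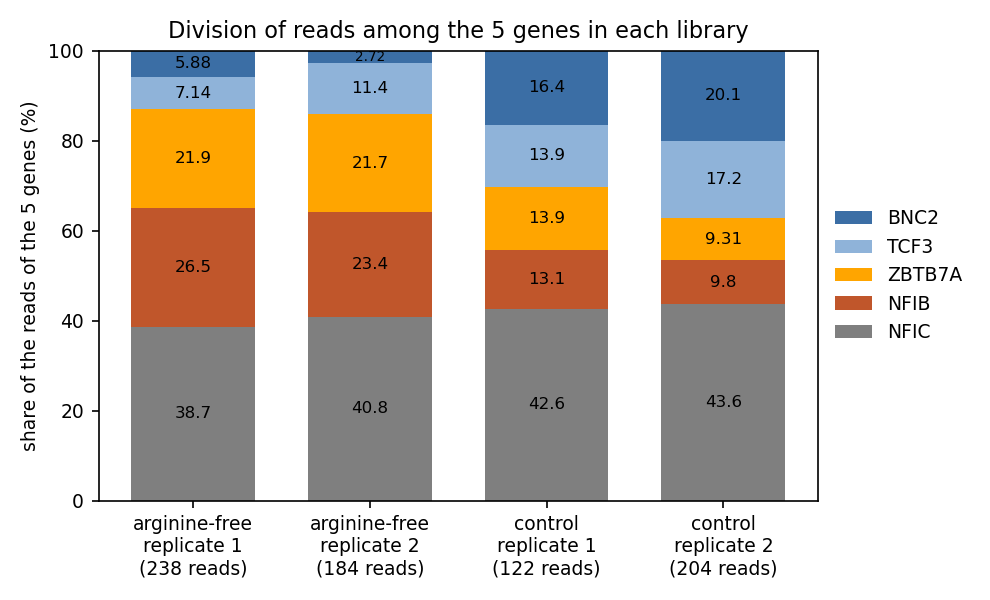
Share of the joint reads of the 5 genes (%) taken by each gene, 1 bar per library, arginine-free libraries left of control libraries. NFIC takes between 38.7 and 43.6% in every library, while BNC2 takes 5.88 and 2.72% in arginine-free libraries and 16.4 and 20.1% in control libraries.

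The division of reads among the 5 genes differed between the media, while the sums overlapped. Together the genes held 238 and 184 reads in arginine-free libraries, against 122 and 204 in control libraries. That is 1031 and 1156 CPM in arginine-free libraries, against 1150 and 1046 CPM in control libraries, with overlap. NFIB took 26.5 and 23.4% of this sum in arginine-free libraries, against 13.1 and 9.80% in control libraries. ZBTB7A took 21.9 and 21.7% in arginine-free libraries, against 13.9 and 9.31% in control libraries. TCF3 took 7.14 and 11.4% in arginine-free libraries, against 13.9 and 17.2% in control libraries. In the chart of shares by library, NFIC is the band that is nearly level.

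**Figure D3:**
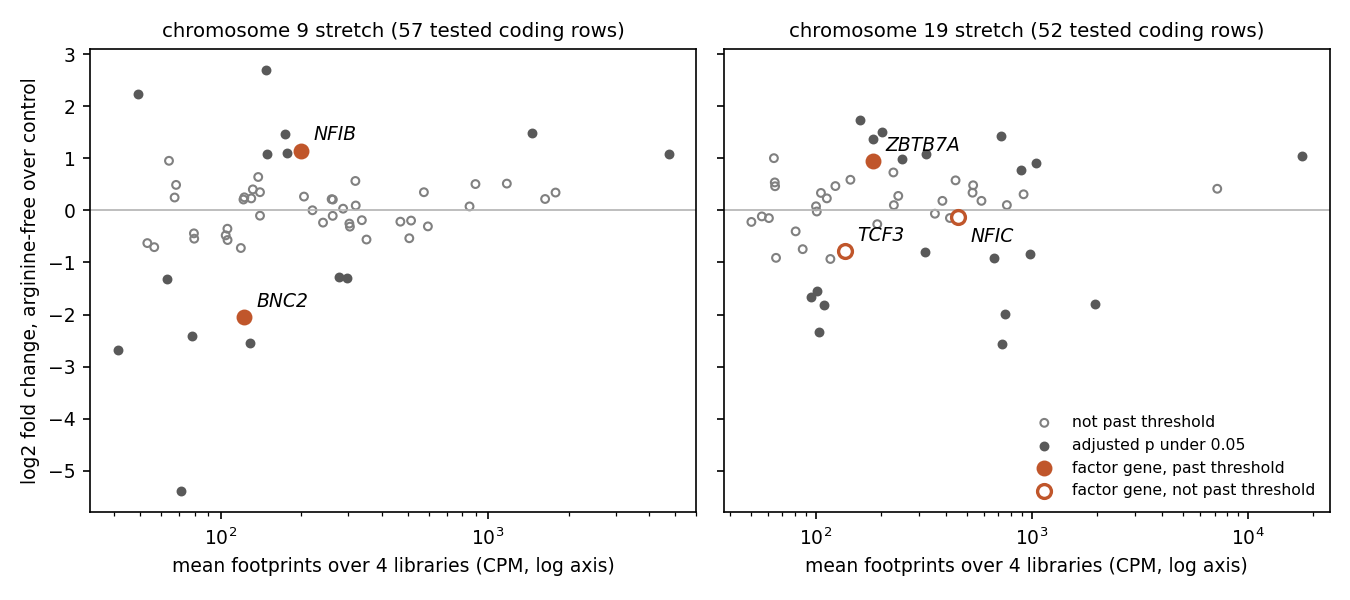
Log2 fold change, arginine-free over control, against mean CPM over 4 libraries (log axis) for tested protein-coding rows of the chromosome 9 and chromosome 19 stretches. Orange points are the 5 genes, and filled points have an adjusted p under 0.05. NFIB and BNC2 lie toward opposite edges of the chromosome 9 panel, and NFIC near 0.

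Among the 57 tested protein-coding rows of the chromosome 9 stretch NFIB ranked 5 from the highest log2 fold change and BNC2 ranked 5 from the lowest. Among 52 in the chromosome 19 stretch ZBTB7A ranked 9 from the highest, TCF3 ranked 13 from the lowest and NFIC stood between. The medians of these rows were 0.03 on chromosome 9 and 0.14 on chromosome 19.

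Further genes of the readable stretches, listed as zinc finger proteins, other DNA-binding factors or cofactors, were counted next. Of 34 genes in 3 lists, 30 had a row in a stretch, 18 held 20 or more reads, 5 were at 0 and 14 could be tested. Of those 14, 3 were higher, 2 were lower and 9 did not pass, a share near the 33.0% of all tested rows. One of the 3 higher rows, IRX4, passed the filter only through the arginine-free libraries, where it was high. Another, ZNF622, is known for a part outside transcription, as given below. The count of lower rows was 1 when arginine-free replicate 1, control replicate 1 or control replicate 2 was left out, and the count of higher rows was 1 with DESeq2. The median log2 fold change was 0.37, against -0.03 for all tested rows and -0.12 for the 5 genes. SIRT6, a chromatin deacylase 3 coding rows from ZBTB7A, had 54 and 47 reads in arginine-free libraries, against 12 and 18 in control libraries (log2 fold change 1.38, SE 0.33, edgeR adjusted p = 0.00619). TLE5, a Groucho-family corepressor lacking the repeats of its longer relatives, had 46 and 43 reads in arginine-free libraries, against 45 and 76 in control libraries (log2 fold change -0.80, SE 0.27, edgeR adjusted p = 0.0351). HMG20B, an HMG-box chromatin protein, had 36 and 43 reads in arginine-free libraries, against 138 and 229 in control libraries (edgeR adjusted p = 7.49e-06).

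IRX4, a homeobox factor, had 12 and 11 reads in arginine-free libraries, against 1 and 0 in control libraries. ZNF622, a zinc finger protein known for its part in the maturing of the large ribosomal subunit rather than in transcription, had 263 and 205 reads in arginine-free libraries, against 32 and 55 in control libraries (edgeR adjusted p = 1.3e-05). The zinc finger genes ZFR, NFX1 and ZNF131 had log2 fold changes of 0.40, -0.25 and 0.33 and did not pass. RFX3 stood at -0.63, and the cofactor genes GADD45B, MLLT3, TOPORS, DOT1L and PIAS4 at 0.73, 0.95, 0.64, 0.28 and 0.23, none past the threshold (edgeR adjusted p from 0.102 for GADD45B to 0.675 for PIAS4). DMRTA1, ZNF77, GLIS3 and MBD3 held 20 or more reads but were not tested. DMRTA1 had 20 and 7 reads in arginine-free libraries, against 3 and 2 in control libraries. In the same order ZNF77 had 14 and 5 against 2 and 5, GLIS3 had 8 and 6 against 3 and 8, and MBD3 had 5 and 11 against 5 and 4.

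The genes of the stretches with the profiles most like each factor were found by the Euclidean distance between log2 CPM values over the 4 libraries, each centred on its own mean, among 175 tested protein-coding rows. NFIB and ZBTB7A were in each other's nearest 3 at a distance of 0.246. The others nearest to NFIB were DCAF12 (0.221), a substrate receptor of a CUL4 ubiquitin ligase, and RPS6 (0.255). DCAF12 had 57 and 36 reads in arginine-free libraries, against 16 and 16 in control libraries. For ZBTB7A they were MIDN (0.231) and again DCAF12 (0.257).

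The profiles nearest to BNC2 were farther off. They were the potassium-chloride cotransporter SLC12A7 at 0.506, the motor protein gene MYO10 at 0.759 and CNTLN at 0.884. SLC12A7 had 11 and 4 reads in arginine-free libraries, against 11 and 24 in control libraries, and like BNC2 and CNTLN it met the filter through the control libraries. Nearest to TCF3 were LIFR (0.217), EXOC3 (0.264) and TLE5 (0.312), and nearest to NFIC were the chaperonin subunit CCT5 (0.106), DMAC1 (0.191) and NDUFS7 (0.2). With 4 libraries in 2 groups many rows lie close together, so these distances describe and do not single out.

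The promoters of the 3 genes past the threshold are shown because these genes differed between the media. Footprints do not measure the promoter. Each sequence runs 5′ to 3′ over 300 bases around the first start listed by RefSeq for GRCh38.p14, on the minus strand, with NFI half-sites (TTGGC, either strand) and E-boxes (CANNTG) in capitals. The places are chr9:16870621-16870920 for BNC2, chr9:14322338-14322637 for NFIB (the first of 10 listed starts) and chr19:4066850-4067149 for ZBTB7A (the first of 2).
BNC2: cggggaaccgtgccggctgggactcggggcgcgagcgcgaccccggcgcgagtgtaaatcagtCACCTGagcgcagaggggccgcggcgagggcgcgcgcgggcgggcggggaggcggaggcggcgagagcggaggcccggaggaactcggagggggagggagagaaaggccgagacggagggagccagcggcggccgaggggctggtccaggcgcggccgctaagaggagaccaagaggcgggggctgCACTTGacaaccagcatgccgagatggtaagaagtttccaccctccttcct
NFIB: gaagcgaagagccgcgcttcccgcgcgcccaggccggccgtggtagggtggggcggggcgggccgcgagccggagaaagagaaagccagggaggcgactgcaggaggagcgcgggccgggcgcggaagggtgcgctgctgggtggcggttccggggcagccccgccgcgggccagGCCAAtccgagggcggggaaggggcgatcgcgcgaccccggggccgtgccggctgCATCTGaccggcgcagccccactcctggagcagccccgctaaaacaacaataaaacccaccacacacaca
ZBTB7A: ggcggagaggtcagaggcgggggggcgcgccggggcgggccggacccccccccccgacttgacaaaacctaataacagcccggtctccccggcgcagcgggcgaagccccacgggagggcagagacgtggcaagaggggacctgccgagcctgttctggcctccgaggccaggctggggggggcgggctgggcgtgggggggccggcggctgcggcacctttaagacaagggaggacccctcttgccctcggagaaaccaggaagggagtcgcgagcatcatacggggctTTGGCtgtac

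All 3 windows were rich in G and C, at 72.3% for BNC2, 73.7% for NFIB and 71.7% for ZBTB7A. The BNC2 window held 2 E-boxes, 1 of them CACCTG, and no NFI half-site. The NFIB window held 1 NFI half-site and 1 E-box, and the ZBTB7A window held 1 NFI half-site and no E-box. Over 35116 RefSeq promoter windows of this length, 45.6% held TTGGC, 68.7% held CANNTG and 20.6% held CACCTG, which is itself one form of CANNTG. The core of the amino acid response element, searched as TGATGNAA on either strand, was in 3.62% of windows and in none of these 3. Over all 10 listed NFIB windows, 6 held an NFI half-site, 8 an E-box and 1 the amino acid response core. The first listed windows of NFIC and TCF3 held none of these motifs.

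**Figure D4:**
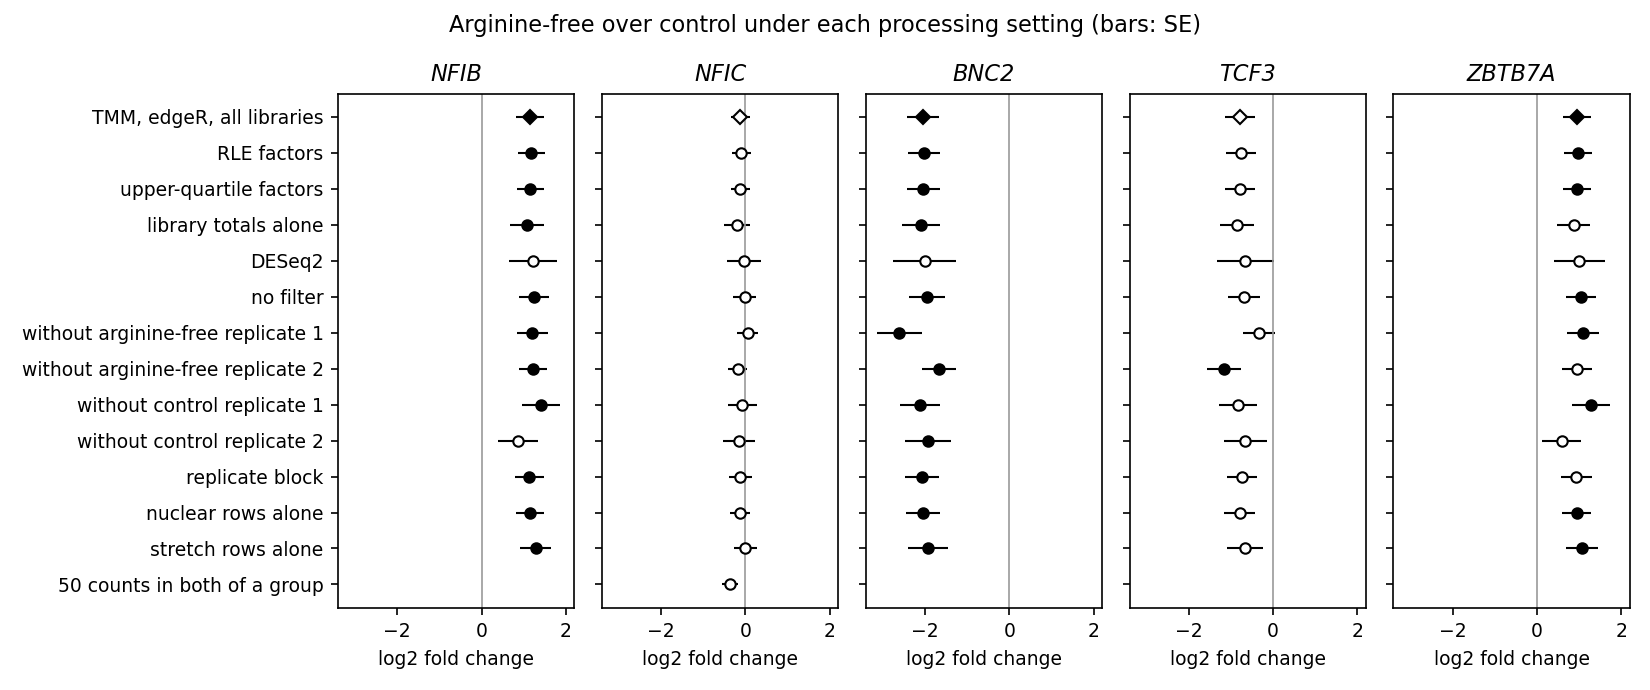
Log2 fold change of each gene, arginine-free over control, under each processing setting, with bars of 1 SE. Filled points have an adjusted p under 0.05. BNC2, NFIB, TCF3 and ZBTB7A keep 1 side of 0 under every setting drawn, and NFIC crosses it.

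The plot of settings shows how firmly each value stood. BNC2 passed under 11 of 12 alternatives, between -2.61 and -1.67 on the log2 scale. NFIB passed under 10 of 12, between 0.87 and 1.40, and ZBTB7A under 7 of 12, between 0.59 and 1.28. TCF3 passed under 1 of 12, between -1.16 and -0.34. NFIC passed under none of 13, with adjusted p-values of 0.154 and above, between -0.36 and 0.0499.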

How the data were processed

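The authors deposited raw counts per gene, made per the file headers with featureCounts 2.0.1 on GENCODE 47 (basic set), summing exons and ignoring strand. The headers also name an option for paired reads, and the labels' protocols describe single reads made without removal of ribosomal RNA. The submitters' processing notes list GRCh37 and hg19 as builds, and TopHat2, Bowtie2 2.5.2 and cutadapt as tools. The other deposited column used, exon length, came from the same table. No coordinates were converted between builds.

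Rows carry identifiers alone. They were named by place against the RefSeq genes of GRCh38.p14: 38559 rows were each other's best match with a RefSeq gene, at an overlap over union of at least 0.5 with a shared start or end, and 0.75 otherwise. The bounds of the readable stretches were taken from an earlier analysis of these data. The members, lists and stretches were chosen with earlier results of these data known.

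Counts were tested with edgeR 4.0.16 (R 4.3.3; TMM, filterByExpr by group, quasi-likelihood test) over all 4 libraries, with Benjamini-Hochberg adjustment over 2526 rows and a threshold of 0.05. Standard errors were taken as the size of the fitted log2 change divided by the root of its F statistic. The fit was tested on simulated data first. It recovered 23% of 100 simulated 2-fold changes and 96% of 100 simulated 4-fold changes, and called 5 unchanged rows. In the simulation a 2-fold change was thus often missed. Every simulated row had the same spread between libraries, and a smaller share of rows was changed than was called in the data. The rates for the real table may therefore differ. Summaries used Python 3.11.15, pandas 2.3.3 and scipy 1.17.1. Alternatives were RLE, upper-quartile and no factors, DESeq2 1.42.0, other filters, each library left out, the replicate number as a block, nuclear rows alone and stretch rows alone. Named genes were the members, rows overlapping them, tested list genes of the stretches, relatives by place, coding neighbours of the members, and the 3 nearest profiles of each member. Coding neighbours were added after their values were seen, and were described as neighbours only for the 3 genes past the threshold. Libraries of a group differed by more than counting error (chi-square over degrees of freedom 6.51 for the arginine-free pair and 3.68 for the control pair). Depth ranged from 105004 to 234766 counts. Intervals on reads cover counting error only, since fragments without molecular identifiers are not independent molecules.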

Additional observations from a re-analysis of the deposited data

How the results depend on the processing

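Of 61 values of the 5 genes under the alternatives, 51 had the same direction and call as reported, 8 lost the call, 1 gained it and 1 changed sign. With DESeq2 the log2 fold changes were -2.00 for BNC2, 1.21 for NFIB and 1.01 for ZBTB7A, and none passed. With library totals alone ZBTB7A stood at 0.87 and did not pass. Leaving out 1 library at a time gave -2.61 to -1.67 for BNC2, 0.87 to 1.40 for NFIB, 0.59 to 1.28 for ZBTB7A, -1.16 to -0.34 for TCF3 and -0.18 to 0.0499 for NFIC, which was 0.0499 without arginine-free replicate 1, a change of sign, and passed in no such fit. The filter of 50 counts in both libraries of a group kept NFIC alone of the 5.

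Of all tested rows, 405 were higher and 428 lower. DESeq2, given 9443 rows, called 162 and 147, the filter of 50 counts, with 580 rows, called 138 and 146, and leaving out 1 library gave 270 to 418 and 243 to 389. The low end of both came without control replicate 2. In the 3 lists of zinc finger, other DNA-binding and cofactor genes, 3 rows were higher and 2 lower, and DESeq2 called 1 and 1. IRX4 was among the higher rows and met the filter only through arginine-free libraries. The cause was not tested. Some settings fit fewer rows or libraries by construction.

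The replicate numbers of the titles name no shared culture or day, and same-numbered libraries did not deviate together (correlation -0.05 over 2526 rows). With the replicate block ZBTB7A stood at 0.93 and did not pass (edgeR adjusted p = 0.0703), no other of the 5 genes changed its call, and 354 rows were higher and 372 lower.

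Depth limits these values: BNC2 rests on 19 reads in arginine-free medium, NFIB and ZBTB7A on 36 each in control medium.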
